A study of Mus musculus with 4 samples.

Results

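The SOX and T-box factor genes are a set of 25 autosomal protein-coding genes, 15 named Sox and 10 named Tbx with a number. They were taken by symbol from the GENCODE annotation of the mouse NCBIM37 (mm9) genome, without Sox2, Sox10, Tbx6 and Tbx19. Their Pax7 binding sites were the peaks whose summit lay within 50 kb of the transcription start site (TSS) of one of these genes. Of 20579 Pax7 peaks, 31 met this rule, each near 1 of the genes. The same count was made for all 22238 protein-coding genes.

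Pax7 is a transcription factor of muscle progenitors and satellite cells, and its occupancy was mapped by ChIP-seq in iPax7 cells. These are progenitors made in vitro from mouse embryonic stem cells of 1 engineered line, which carries a Pax7 transgene under a doxycycline (Dox) switch next to Hprt. The cells were differentiated in serum, sorted as PDGFRα+FLK1- on day 5 and kept in basic FGF at 10 ng/ml, and Dox at 1 µg/ml was given from day 3 for 6 days until harvest on day 9. Both groups of libraries, 2 Pax7 ChIP and 2 input, came from Dox-treated cells with the transgene, and Pax7 ChIP without Dox was not analysed here. The authors merged replicates before calling peaks, so the list is 1 pooled measurement in which a peak has no replicate error, and peaks of 1 list are not replicates of each other. The intervals below are 95% Wilson intervals for counting error only, and no test between groups was possible.

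SOX proteins bind DNA through an HMG box and bend it, and T-box proteins bind through the T domain that gives the family its name. Both families set cell identity in the embryo, in cartilage, heart, limb, neural crest and muscle, and the genes of a SOX group share their HMG box type. Pax7 itself binds through a paired domain and a homeodomain. A site near a gene says where the protein sat, and does not show that the gene responded.

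Pax7 peaks were present near most of these genes, at about the share seen over all genes. At least 1 peak lay within 50 kb of 15 of the 25 TSSs, or 60.0% (40.7 to 76.6%), beside 55.2% of all protein-coding genes. Of the Sox genes 9 of 15 had a peak, and of the Tbx genes 6 of 10. The highest counts were at Sox15 with 6 peaks, Tbx15 with 4 and Sox12 with 3. A further 6 genes had 2 peaks (Sox5, Sox9, Sox14, Sox30, Tbx10 and Tbx21) and 6 had 1 (Sox4, Sox8, Sox11, Tbx1, Tbx2 and Tbx4). No peak lay within 50 kb of Sox6, Sox7, Sox13, Sox17, Sox18, Sox21, Tbx3, Tbx5, Tbx18 or Tbx20.

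**Figure D1:**
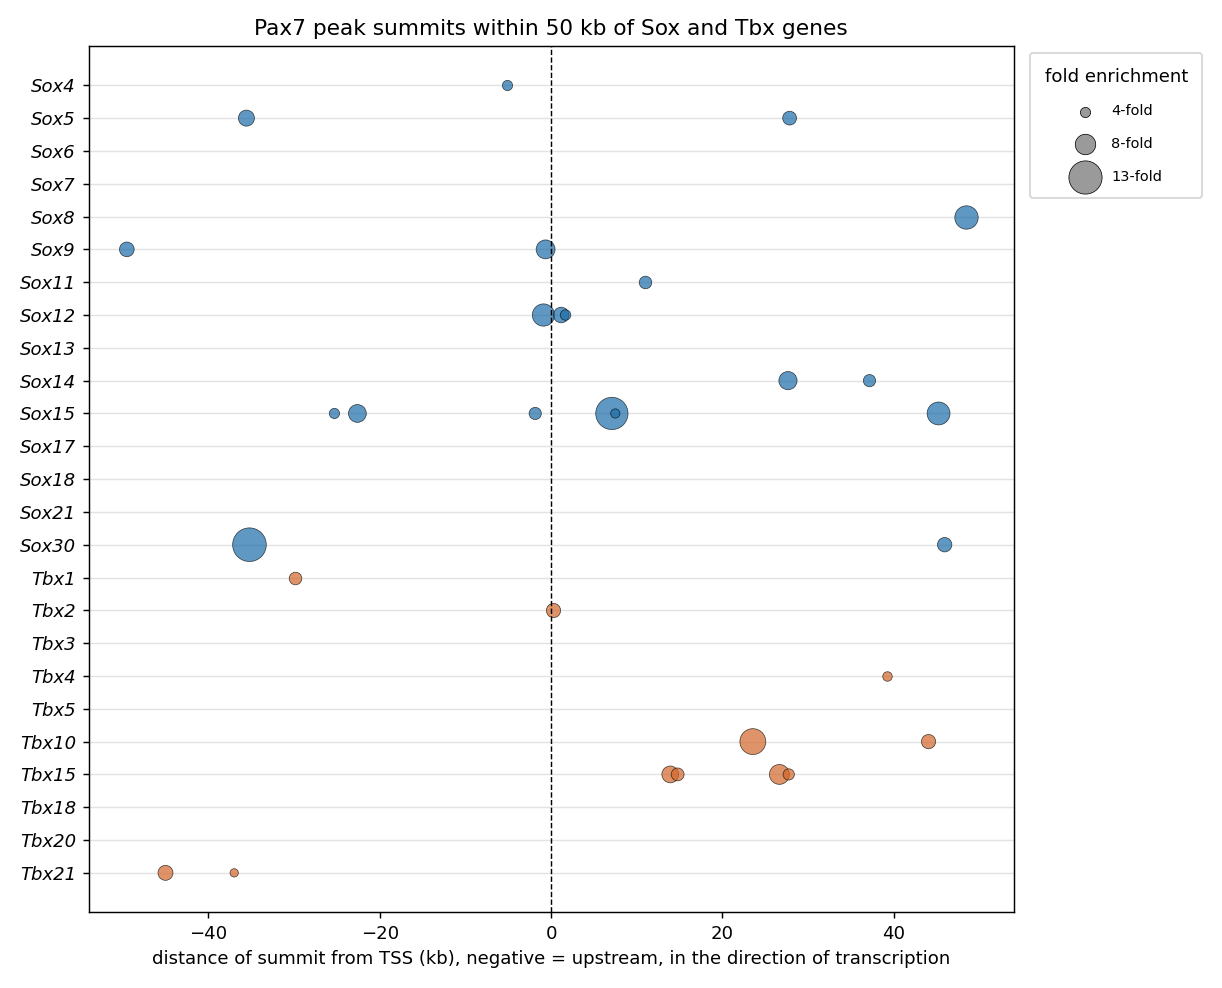
Each row is 1 of the 25 genes and each circle a Pax7 peak summit, placed by its distance from the TSS in kb (negative values are upstream) with circle area rising with the square of fold enrichment; blue marks Sox and orange Tbx genes. The 31 summits are spread over the whole window with 3 within 1 kb of a TSS, and 10 rows are empty.

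The sequence around the summit is shown for the summits with the highest enrichment, for those at a promoter, and for those with a Pax motif close by. Whether Pax7 contacts the bases shown was not tested. Each stretch below is 51 bp of the mm9 plus strand centred on the summit, and capitals mark a match to a Pax motif, either the paired-domain core GTCACG (read as CGTGAC on the other strand) or the homeodomain dimer, TAAT and ATTA with 3 bases between them. The last 2 were chosen after their motif matches were seen. The Tbx2 promoter peak is not printed, because its summit lay in a 5′ UTR.
Sox30, 35.2 kb upstream, chr11:45758573-45758623: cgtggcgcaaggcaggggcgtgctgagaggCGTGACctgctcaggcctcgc
Sox15, 7.09 kb downstream, chr11:69475880-69475930: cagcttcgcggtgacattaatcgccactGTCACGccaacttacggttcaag
Tbx10, 23.5 kb downstream, chr19:4016271-4016321: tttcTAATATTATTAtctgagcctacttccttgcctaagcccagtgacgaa
Sox8, 48.4 kb downstream, chr17:25659197-25659247: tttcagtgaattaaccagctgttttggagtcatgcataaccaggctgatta
Sox15, 45.2 kb downstream, chr11:69514014-69514064: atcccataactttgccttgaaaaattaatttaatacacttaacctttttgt
Sox12, 895 bp upstream, chr2:152224652-152224702: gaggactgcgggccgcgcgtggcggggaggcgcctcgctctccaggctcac
Sox9, 647 bp upstream, chr11:112642866-112642916: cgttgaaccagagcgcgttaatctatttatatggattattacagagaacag
Sox5, 35.6 kb upstream, chr6:144766040-144766090: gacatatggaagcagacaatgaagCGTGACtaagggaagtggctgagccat
Sox12, 1.17 kb downstream, chr2:152222583-152222633: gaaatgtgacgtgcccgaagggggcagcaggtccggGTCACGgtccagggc

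The strength of a peak is given below as fold enrichment, the authors' ratio of ChIP signal to local background at the summit. It describes and ranks peaks within this list. The MACS2 −log10 q-value is given beside it for the stronger peaks.

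The SoxC genes Sox4, Sox11 and Sox12, which act in neural and mesenchymal progenitors, each had a peak, 5 in all. All 3 peaks of Sox12 lay within 2 kb of its start. The strongest of these, chr2:152224526-152224854, reached 8.72-fold with a −log10 q of 26.8 and its summit was 895 bp upstream of the TSS. It exceeded 88.3% of all Pax7 peaks. A 6.10-fold peak lay 1.17 kb downstream in coding sequence of Sox12, and a 4.13-fold peak lay 1.68 kb downstream in a Sox12 intron. The summits of the last 2 were 505 bp apart. Sox4 had a 4.01-fold peak 5.17 kb upstream, at chr13:29050658-29050868, and Sox11 a 4.92-fold peak 10.9 kb downstream, at chr12:28016546-28016773. Both were in intergenic sequence with their own gene as the nearest coding gene, and both were below the median of all peaks.

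The SoxE genes Sox8 and Sox9 both had binding. Sox9, which directs cartilage formation and is needed for testis development, had a 7.41-fold peak 647 bp upstream of its TSS at chr11:112642752-112643119 (−log10 q 23.2). A second peak, 5.76-fold, was 49.5 kb upstream. Both lay in introns of BC006965, a lincRNA gene that starts beside Sox9, and Sox9 was the nearest coding gene for both. At Sox8, a gene expressed in satellite cells, 1 peak of 9.16-fold (−log10 q 37.1) lay 48.4 kb downstream of the TSS at chr17:25659074-25659357. It was closer to Sstr5, a somatostatin receptor gene, with 25.0 kb between them.

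The SoxD genes, of which Sox5 and Sox6 support Sox9 in cartilage, had 2 peaks within 50 kb and both were at Sox5. A 6.28-fold peak lay 35.6 kb upstream of Sox5 between genes, at chr6:144765955-144766212. A 5.41-fold peak lay 27.8 kb downstream in a Sox5 intron, and Sox5 was the nearest coding gene for both. Sox6, which also represses slow-fibre genes in muscle, had its nearest summit 85.9 kb from the TSS. At Sox13 the nearest was 60.5 kb away.

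The SoxF genes Sox7, Sox17 and Sox18, regulators of endothelium and endoderm, had no peak within 50 kb. Their nearest summits were 74.8, 289 and 70.5 kb away. Sox14 and Sox21 belong to the repressor branch of the SoxB genes, which act in neural development. Sox14 had a 7.12-fold peak 27.6 kb downstream and a 4.80-fold peak 37.2 kb downstream, both intergenic with Sox14 as the nearest coding gene. Sox21 had its nearest summit 100.1 kb away.

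Sox15, a gene known from myoblasts and muscle regeneration, had the most peaks of the set, and 11 other coding TSSs lay within 50 kb of it. Its peaks ran from 3.63- to 12.6-fold. The strongest, chr11:69475760-69476054, was 7.09 kb downstream with a −log10 q of 56.7, and its summit was in an intron of Mpdu1, 239 bp from the TSS of that gene. It exceeded 97.4% of all Pax7 peaks. A second summit of 3.63-fold lay 402 bp farther on, 163 bp upstream of Mpdu1. An 8.96-fold peak 45.2 kb downstream was the widest of the 31 at 769 bp and lay 4439 bp upstream of BC096441. On the other side, a 6.98-fold peak 22.6 kb upstream was 289 bp upstream of Fxr2, which encodes an RNA-binding protein, and a 4.01-fold peak 25.3 kb upstream was also nearest to Fxr2. Only the 4.78-fold peak 1.86 kb upstream had Sox15 as its nearest coding gene.

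Sox30, a regulator of male germ cells, had the highest fold enrichment of the set. The 13.2-fold peak at chr11:45758445-45758738 (−log10 q 75.0) lay 35.2 kb upstream of Sox30. It was 161 bp upstream of Lsm11, which encodes a protein of histone pre-mRNA processing. Of all Pax7 peaks 97.9% were lower. The other Sox30 peak was 5.64-fold, 45.9 kb downstream and nearer to Gm12166.

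The Tbx1 group held 7 peaks over 3 of its 5 genes. Tbx15, which acts in skeletal development and in glycolytic muscle fibres, had 4, all of them in introns of Tbx15 itself. They came as neighbouring summits, with values of 6.58- and 5.04-fold at 13.9 and 14.8 kb from the TSS and of 7.78- and 4.41-fold at 26.6 and 27.7 kb. The gaps between neighbours were 860 and 1091 bp. The 7.78-fold peak, chr3:99070719-99071120, had a −log10 q of 36.2, and the 6.58-fold summit lay within 1 kb of the start of another Tbx15 transcript. No other member had more than 2 summits inside its own gene within 50 kb of the TSS.

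Tbx10 had the third peak of at least 10-fold, 10.1-fold with a −log10 q of 43.9, at chr19:4016131-4016555. Its summit was 23.5 kb downstream of Tbx10 and 3490 bp upstream of Ndufv1, which encodes a subunit of respiratory complex I. A 5.58-fold peak was 44.1 kb downstream in an intron of Gstp1, a glutathione S-transferase gene. Tbx10 had 8 other coding TSSs within 50 kb. Tbx1, a gene of the pharyngeal arches and the muscles of the head, had a 4.94-fold peak 29.9 kb upstream at chr16:18617861-18618091, which was nearer to the platelet gene Gp1bb. Tbx18, known from the epicardium and ureter, had its nearest summit 113 kb away. Tbx20, a heart gene, had it 169 kb away.

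Of the Tbx2 group, Tbx2 and Tbx4 had 1 peak each, and Tbx3 and Tbx5 had none within 250 kb. The Tbx2 peak, chr11:85646157-85646340, was 5.58-fold with its summit in the 5′ UTR exon 206 bp from the TSS. Tbx2 encodes a repressor of the heart and limb. The peak at Tbx4, a hindlimb gene, was 3.73-fold and 39.2 kb downstream between genes. The nearest summits to Tbx3, another repressor of this group, and to Tbx5, which is needed for the forelimb and heart, were 268 and 317 kb from their TSSs. Tbx21, which encodes the T-bet factor of T helper cells, had a 5.86-fold peak 45.0 kb upstream, in a UTR exon of the importin gene Kpnb1. Its other peak was 3.26-fold, the lowest of the 31, and lay 37.0 kb upstream of Tbx21 and 833 bp upstream of Tbkbp1.

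Closest to the limit on the inside were the Sox9 peak at 49.5 kb and the Sox8 peak at 48.4 kb. Just outside it were a 5.41-fold summit 51.7 kb from Sox15, a 10.3-fold summit 53.0 kb upstream of Sox4 and a 4.80-fold summit 53.4 kb from Tbx10. The Tbx2 promoter peak was also 53.7 kb upstream of Tbx4 and is counted for Tbx2 only.

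The number of peaks per gene had the same median and quartiles as over all genes. The median was 1, with quartiles of 0 and 2, and the mean was 1.24 beside 1.11 over all protein-coding genes. At least 3 peaks were found at 3 members (12.0%), beside 14.6% of all genes. A peak of at least 10-fold lay near 3 members (12.0%), beside 6.83%. Of the 42 forkhead genes, another family of transcription factors, 61.9% had a peak and the mean was 1.05. The 39 Hox cluster genes, which share peaks because they lie side by side, had a median of 2 and a mean of 2.03. Of them 74.4% had a peak. The 79 ribosomal protein genes, which are active in every cell, had a mean of 1.57, and 72.2% had a peak.

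**Figure D2:**
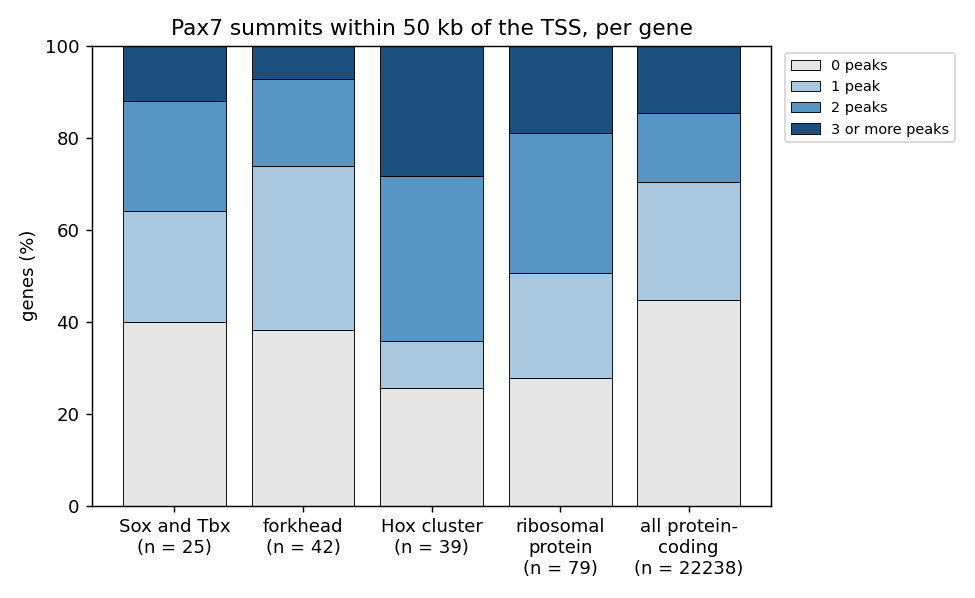
Stacked bars give the percentage of genes with 0, 1, 2 or at least 3 Pax7 summits within 50 kb of the TSS, for 5 sets of genes whose numbers stand under the bars. The Sox and Tbx genes had 40.0% without a peak, beside 44.8% of all protein-coding genes and 25.6% of Hox cluster genes.

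Many members lay apart from other coding genes. No other coding TSS was within 50 kb of 12 of the 25 genes (48.0%), beside 26.5% of all protein-coding genes. A peak was found at 6 of these 12 members, beside 48.1% of all genes with no such neighbour. With 1 to 2 neighbours the count was 6 of 9 members beside 54.6% of all genes, and with 3 to 5 it was 1 of 2 beside 58.6%. Sox15 and Tbx10 had 6 neighbours or more, a class in which 70.0% of all genes had a peak, and both did. Over all genes the share with a peak was higher in each class with more neighbours, and these 25 genes had a median of 1 neighbour beside 2 over all genes.

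Shares were also counted at other distances from the TSS. Within 1 kb, 3 of 25 genes had a summit (Sox9, Sox12 and Tbx2), beside 11.8% of all genes. Within 10 kb it was 5 of 25, 20.0% (8.86 to 39.1%), beside 24.2%. Within 25 kb it was 8 of 25 (32.0%), beside 38.6%, within 100 kb 19 (76.0%), beside 71.6%, and within 250 kb 22 (88.0%), beside 86.3%. The mean number of summits went from 0.36 at 10 kb to 5.56 at 250 kb in the members, and from 0.306 to 5.16 over all genes. The interval for the members held the value of all genes at 10, 25, 50, 100 and 250 kb.

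**Figure D3:**
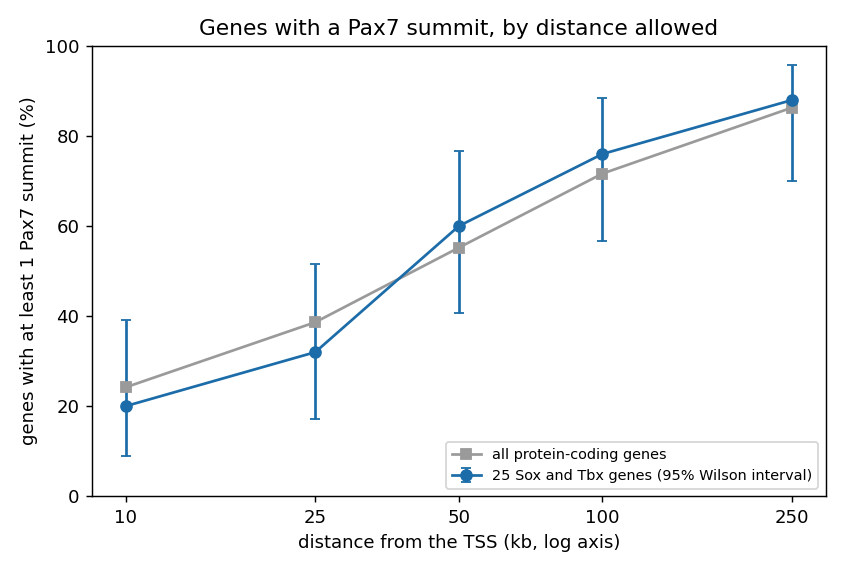
The percentage of genes with at least 1 Pax7 summit is plotted against the distance allowed from the TSS (kb, log axis) for the 25 Sox and Tbx genes, with 95% Wilson intervals, and for all protein-coding genes. Members went from 20.0% at 10 kb to 88.0% at 250 kb and all genes from 24.2% to 86.3%.

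Most of the 31 summits were far from the TSS they were assigned to. The median distance was 26.6 kb, 12 were upstream and 19 downstream, and 8 were inside the gene itself (at Sox12, Sox5, Tbx15 and Tbx2). Of these 8, Tbx15 held 4. Direction and place inside the gene were not counted for the pairs over all genes, so these counts have no background here. Between 25 and 50 kb lay 17 of the 31 summits (54.8%), beside 46.3% of the summit and gene pairs over all genes. Between 10 and 25 kb lay 5 (16.1%), beside 26.1%. The nearest coding TSS was the member's own for 18 of 31 peaks (58.1%), beside 46.0% of 24616 pairs over all genes. The other 13 were nearer to another coding gene, and 6 of the 31, at Sox15, Sox30 and Tbx21, were within 1 kb of the TSS of another gene and not of a member. The 3 peaks of at least 10-fold, at Sox30, Sox15 and Tbx10, were all nearer to another coding gene. The 46.0% above is 11313 peaks over 24616 pairs, since each peak has 1 nearest coding gene. Over all genes that share is set by how many coding TSSs lie within 50 kb of a peak. The members had a median of 1 neighbour beside 2 over all genes. Whether this bears on their share of 58.1% was not tested.

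In strength the 31 peaks spread over much of the range of the list. The median was 5.64-fold (quartiles 4.79 and 7.26) with a range of 3.26 to 13.2, beside a median of 5.22 (4.32 and 6.74) in the 20548 other peaks. At least 5-fold was reached by 20 (64.5%, 46.9 to 78.9%), beside 54.9% of the others. At least 10-fold was reached by 3 (9.68%), beside 6.99%. The median was 5.93-fold near Sox genes (20 peaks) and 5.58-fold near Tbx genes (11 peaks). The median width was 264 bp beside 252 bp.

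**Figure D4:**
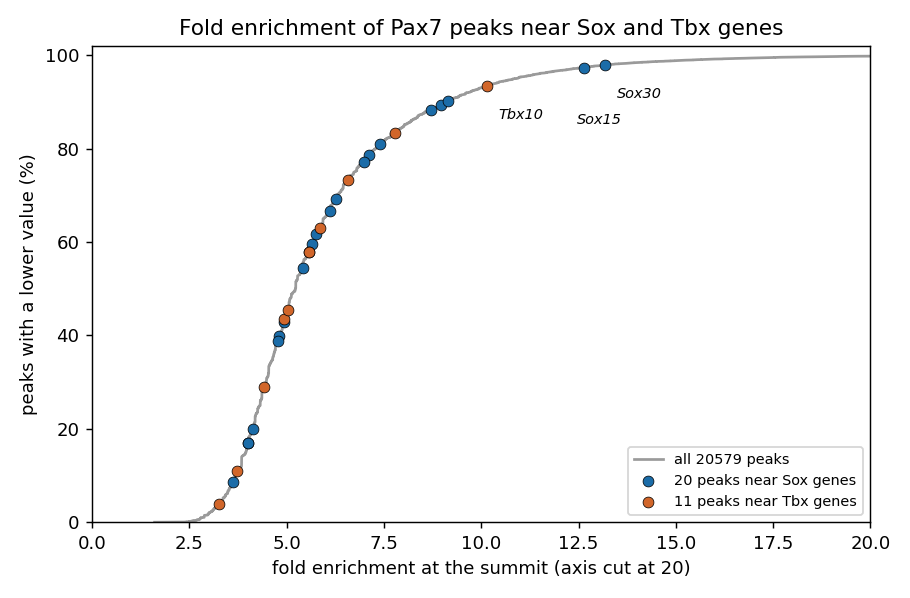
Points are the 20 peaks near Sox genes and 11 near Tbx genes, at their fold enrichment (x axis, cut at 20) and the percentage of all peaks with a lower value (y axis), on the grey curve of all 20579 peaks. They run from 3.26- to 13.2-fold, and the peaks at Sox30, Sox15 and Tbx10 exceed 10-fold.

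The place and spacing of the peaks are set beside the 11282 other peaks that lay within 50 kb of a protein-coding TSS, since the rule takes peaks around a TSS. Of the 31 summits, 8 (25.8%, 13.7 to 43.2%) had another summit within 2 kb, beside 13.8%. Of these, 2 were at Sox12, 2 at Sox15 and 4 at Tbx15. A close pair counts both of its summits, so the 8 are not separate counts and their interval is too narrow. Taking the starts of all annotated transcripts, 10 summits lay within 1 kb of one (32.3%, 18.6 to 49.9%), beside 27.7%. In introns away from a TSS lay 7 (22.6%, 11.4 to 39.8%), beside 38.8%, and between genes 13 (41.9%, 26.4 to 59.2%), beside 30.3%. The median GC content of the 101 bp around the summit was 49.5%, beside 47.5%. The intervals of the members held each of these shares of the other peaks, that for spacing only just.

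A Pax motif within 50 bp of the summit, on either strand and with overlaps allowed, was found at 6 of 31 peaks, 19.4% (9.19 to 36.3%), beside 14.6% of other peaks. All 6 held the paired core GTCACG, which 11.1% of other peaks held. They were the strongest peaks of Sox30, Sox15 and Tbx10, the upstream peak of Sox5, and the peaks 895 bp upstream and 1.17 kb downstream of Sox12. The core lay 7.5, 5.5 and 1.5 bp from the summit at Sox30, Sox15 and Sox5, 13.5 bp at the Sox12 coding peak, and 29.5 and 31.5 bp at Tbx10 and the Sox12 promoter peak. At Tbx10 the homeodomain dimer with a spacer of 3 bases lay 16 bp from the summit as well, the 1 match among the 31 (3.23%), beside 0.988%. The dimer with a spacer of 2 bases had no match, beside 0.832% of other peaks. The paired and homeodomain motif, ATTAGTCAC or ATTAGTCAT, had none either, beside 2.11%. For these motifs 0 of 31 allows a share of up to 11.0% by the Wilson interval. The paired core was at 3 of the 3 peaks of at least 10-fold, beside 19.3% of the 1436 other peaks of that strength. It was at 3 of 17 from 5- to 10-fold (17.6%), beside 11.9%, and at 0 of 11 below 5-fold, beside 9.07%. Over the whole list the core was thus more frequent at stronger peaks, and the numbers near these genes are small.

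Motifs of the factors that these genes encode were not frequent at the peaks. The SOX motif, ACAATG or ACAAAG, was at 2 of 31 summits (6.45%, 1.79 to 20.7%), beside 12.1% of other peaks. They were the upstream peak of Sox5, where it lay 7.5 bp from the summit, and the 7.78-fold peak in Tbx15. The T-box motif GGTGTGA was at 0 of 31, beside 1.96%. The E-box CAGCTG, a motif bound by myogenic factors, was at 4 (12.9%), beside 15.7%. The TEAD motif GGAATG and the RUNX motif TGTGGT were at 3 each (9.68%), beside 11.0% and 9.73%. The AP-1 motif TGANTCA was at 5 (16.1%, 7.09 to 32.6%), beside 6.81%, at Sox5, Sox9, Sox14, Tbx4 and Tbx21. The hexamer GCACTG, chosen as a control with no known role here, was at 4 (12.9%, 5.13 to 28.9%), beside 6.85%. The interval of the control, like those of the paired core and the SOX motif, held the share of the other peaks. That of AP-1 lay just above it, the only one of the motifs counted, and no allowance was made for their number. The 20548 other peaks were not limited to those near a TSS. Their median GC content was 45.5%, beside 49.5% in the members.

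**Figure D5:**
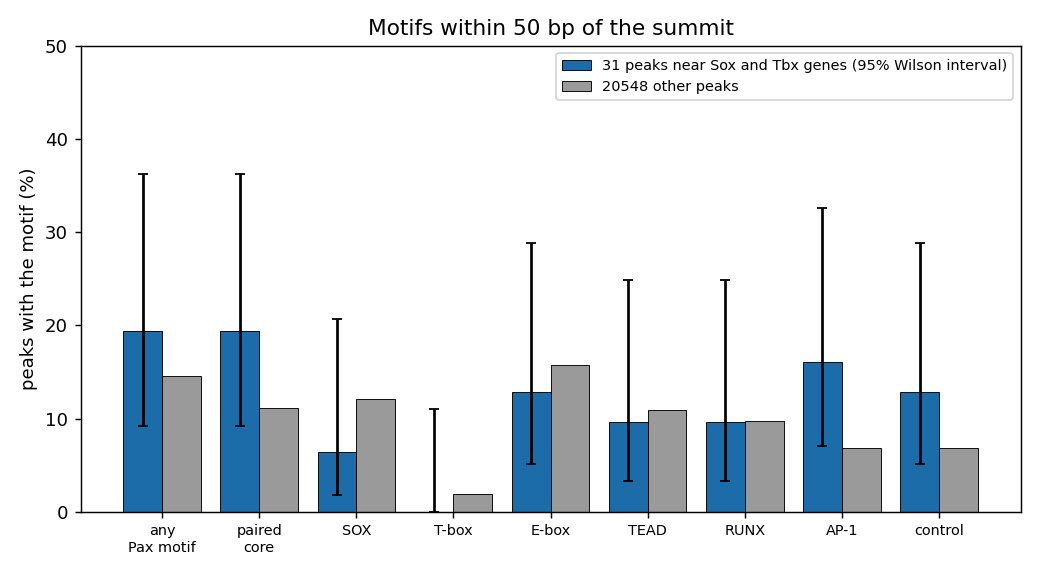
Bars give the percentage of peaks with each motif within 50 bp of the summit, for the 31 peaks near Sox and Tbx genes (blue, with 95% Wilson intervals) and 20548 other peaks (grey). The paired core was at 19.4% and 11.1% and the control hexamer at 12.9% and 6.85%.

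Related genes outside the rule were counted in the same way. The T-box genes counted here were T, Eomes, Tbr1, Mga and Tbx22, and the SOX gene was Sox3, while Sox2, Sox10, Tbx6 and Tbx19 were not counted. Of these 5 T-box genes 2 had a peak, Tbr1 with 2 (up to 5.12-fold) and Mga with 1 (3.24-fold), and T, Eomes and Tbx22 had none. Sox3 had none either. Of 7 cartilage genes on which Sox5, Sox6 and Sox9 act, 3 had a peak. They were Acan, which encodes aggrecan (8.92-fold, 18.1 kb from its TSS), Col9a1 (5.07-fold) and Col11a2 with 2 peaks (up to 5.41-fold), while Col2a1, Matn1, Comp and Hapln1 had none. Of 10 heart and limb genes that work with T-box factors, 8 had a peak, 12 in all, and Nkx2-5 and Gata6 had none. The strongest was at Fgf8, a growth factor of the limb bud, with 13.2-fold 5.13 kb from its TSS. Fgf8, Hand2 (up to 7.54-fold), Fgf10 (up to 6.99-fold) and Nppa (up to 4.71-fold) had 2 peaks each. These shares are read against the same 55.2% of all genes.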

How the data were processed

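Pax7 ChIP-seq libraries and inputs, 2 of each, came from Dox-treated iPax7 cells. Per the study's methods, alignment to mm9 was by bowtie2 and duplicate removal by Picard. The authors then pooled the replicates, and MACS2 listed peaks up to a q-value of 0.01. The deposited list holds 20579 peaks. The authors' fold enrichment is the ratio of ChIP to local background at the summit. The deposited list also gives −log10 of the p-value and q-value and a score derived from the −log10 q. It has no read counts, so the number of reads behind a single peak is unknown here. The study does report the depth of each library.

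Summits were set against gene records of GENCODE for NCBIM37 (22380 records, 22238 symbols; of the 2 records of Sox4 the longer was used). Sox1 was not analysed here. Coordinates are 1-based. Distances are signed by the direction of transcription. A summit was placed first within 1 kb of any annotated transcript start, then in an exon, an intron or between genes. A motif counted if either strand held it no more than 50 bp from the summit (101 bp). Sequences are from the mm9 genome. The counting of summits per gene and the search for motifs were tested on simulated data, and the other steps were not. The members, lists and motifs were chosen with earlier results of these data known. Every member is named, with its peaks singly. Alternatives were 25, 100 and 250 kb, −log10 q or fold enrichment of at least 5, merging within 500 bp, starts of any transcript, overlap of at least 1 bp, 25 and 100 bp for motifs, 5 kb for promoters, autosomal genes as background and all gene records. Software was samtools 1.23.1, pysam 0.24.0, matplotlib 3.10.9, scipy 1.17.1, pandas 2.3.3 and numpy 2.4.6 under Python 3.11.15. ChIP-seq of other factors, RNA-seq and chromatin contacts were not analysed here.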

Additional observations from a re-analysis of the deposited data

How the results depend on the processing

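Of 51 recomputed values, 39 stayed within 1.5 times the reported count or within its interval, and 12 moved. Some of the 39 could hardly move. The median of peaks per gene was judged against 0 to 2, and was 0 at 25 kb and 2 at 100 kb. Every member peak had a −log10 q of at least 5.63, so a limit of 5 changed no member value. With 25 kb in place of 50 kb, 8 members had a peak, 14 peaks were counted, and the share of all genes with a peak was 38.6%. With 100 kb, 19 members had a peak, 55 peaks were counted, and 71.6% of all genes had one. With a fold enrichment of at least 5, 20 peaks were left at 11 of the 25 members, and the share of all genes was 37.8%. With 5 kb in place of 1 kb, 6 peaks lay near a start. The share of all genes was 53.0% with a −log10 q of at least 5, 56.8% over autosomal genes, 58.0% with the start of any transcript and 86.3% within 250 kb, a distance chosen after the data were seen. With the start of any transcript 17 of the 25 members had a peak, and within 250 kb 22 did. The share of all genes rests on so many genes that small shifts passed its interval. No paired analysis was possible because the authors merged the replicates before peak calling, and for the same reason no replicate could be left out. The depth per library sets how weak a peak can be listed, so a gene without a peak is a gene at which binding was not detected at this depth.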

Other observations

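Beyond 50 kb, several members had wide stretches of their own with many peaks. These values were looked up after the data were seen. Each peak was given to the nearest coding TSS, and 70 of 20579 peaks fell to the 25 genes, a mean of 2.80 per gene beside 0.927 over 22208 genes with such a stretch. The members' stretches were longer, with a median of 175 kb beside 47.9 kb, and per length the numbers were 10.5 peaks per Mb beside 7.80. Of the members 12 (48.0%) had such a peak, beside 38.4%, and the median was 0 in both.

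Sox4 had 15 of the 70, of which 11 lay in introns of the lincRNA gene 2610307P16Rik and 2 in Cdkal1. They ran from 3.96- to 10.3-fold, although its only peak within 50 kb was at 4.01-fold. Sox11 and Sox14 had 9 each, with up to 8.96- and 8.25-fold. Tbx2 had 8, of which 7 lay in introns of Bcas3, 63.0 to 183 kb upstream, at 3.26- to 6.98-fold. All 6 peaks of Sox9 were above 5-fold, from 5.40 to 7.41. Tbx3, without a peak within 250 kb, had 4 between 268 and 346 kb upstream, and they included 12.8-fold at chr5:119831446-119831816 (−log10 q 73.8), 289 kb upstream, and 10.9-fold 304 kb upstream.

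Inside the gene body, Sox6 had 12 intronic peaks 85.9 to 553 kb from its TSS, with a median of 4.18-fold, and 4 of them reached 5-fold. Its density was 21.1 per Mb beside 7.34 in Sox5 with 7 peaks. The density was higher in the shorter genes Tbx15 (43.9 per Mb), Tbx2 (106) and Sox12 (451). Summits inside the 25 genes came to 13.7 per Mb beside 10.6 over all genes. This density rests on 27 summits, of which 12 were in Sox6 and 7 in Sox5. Only 5 of the 25 members had a summit inside the gene, beside 22.3% of all genes. Counting from the start of any transcript, Sox6 went from 0 to 3 peaks within 50 kb and Sox13 from 0 to 1.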
